A study of Homo sapiens with 10 samples.

Results

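The genes of the cytosolic ribosome were examined in spheroids grown from the human prostate cancer line PC-3, given the topoisomerase I inhibitor topotecan or no drug. Members were taken by gene symbol (RPL and RPS genes with an optional A, L or X ending, RPLP0, RPLP1, RPLP2 and RPSA, without pseudogenes), which selected 80 of the 18144 genes listed, 49 of the large and 31 of the small subunit. The 7 libraries were untreated spheroids on days 0, 3 and 7, CONV-TOPO spheroids (a bolus of topotecan) on days 3 and 7 and EE-TOPO spheroids (extended exposure, daily fractions of the dose) on days 3 and 7. Every group used the wild-type labelled PC3 line and held 1 library, so no group had a replicate, and samples of day 1 were not analysed here. The study's text gives the later time point in weeks whereas the labels call it day 7, and the labels were followed.

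The cytosolic ribosome carries out protein synthesis, and its small subunit reads the message while its large subunit joins amino acids. Each of its proteins is normally present in a single copy per ribosome, apart from the acidic stalk proteins, and the mRNAs of these proteins are known to be among the most abundant in dividing cells. Most of them begin with a C followed by a run of pyrimidines, the terminal oligopyrimidine (TOP) motif, through which mTOR signalling and the RNA-binding protein LARP1 control their translation and stability. Several ribosomal proteins also act outside the ribosome, and free RPL5, RPL11 and RPL23 bind MDM2, a ubiquitin ligase.

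Start sites are shown because the TOP motif is the feature these messages share that the choice by symbol did not use. The annotation of RefSeq (GRCh38.p14) gave a start for 63 members, of which 42 (66.7%) began with C followed by at least 4 C or T bases, against 4.97% of 13529 starts of listed genes. Each line below runs 5′ to 3′ from 10 bases before the start to 20 bases from it, with its position and strand and with the C and its pyrimidines in capitals, first for 5 of the 6 members with the highest and then for 4 of the 6 members with the lowest change on day 7.
RPL28 (chr19:55385922-55385951, plus strand): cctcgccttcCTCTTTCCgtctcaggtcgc
RPS9 (chr19:54200848-54200877, plus strand): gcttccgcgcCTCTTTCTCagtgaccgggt
RPL18 (chr19:48619159-48619188, minus strand): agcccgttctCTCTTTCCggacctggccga
RPS19 (chr19:41860245-41860274, plus strand): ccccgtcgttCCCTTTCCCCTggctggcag
RPLP2 (chr11:809957-809986, plus strand): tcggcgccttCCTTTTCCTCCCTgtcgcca
RPS3A (chr4:151099618-151099647, plus strand): cccacttccgCCCTTTTggctctctgacca
RPSA (chr3:39406710-39406739, plus strand): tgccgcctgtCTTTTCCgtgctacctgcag
RPS24 (chr10:78033853-78033882, plus strand): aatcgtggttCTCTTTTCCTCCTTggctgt
RPS7 (chr2:3575250-3575279, plus strand): cgccctcctcCTCgcgctgtttccgcctct
All 5 of the first set had the motif. Of the second set RPS3A, RPSA and RPS24 had it, while RPS7 had a C followed by 2 pyrimidines. RPL6 and RPS26, the other members of the lower set, had no C at the RefSeq start. Both sets were chosen by their change, so they do not show whether the motif goes with it. Of 42 members with the motif, 14 were called higher on day 7 (limma, adjusted p under 0.05). Of 20 tested members with another RefSeq start, 7 were, against 20.1% of all genes. The motif was read at the annotated start only, so one at another start would be missed. In the 300 bases around the start, read on both strands, the ETS-family word CCGGAAG was found in 33.3% of members and 16.5% of all starts, the YY1 word AAGATGG in 12.7% and 6.69%, and the TATA word TATAAA in 9.52% and 7.23%.

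Values are CPM as deposited, a gene's reads scaled to a library total of 1000000, or, where called scaled, divided by a factor from the trimmed mean of M values (TMM) that lines up the bulk of the genes between libraries. Depth was estimated at 15028215 to 22478190 reads per library. Of the 80 members, 78 averaged at least 10 CPM and passed the filter on low values (at least 0.528 CPM in 2 libraries), and 72 of them averaged over 100 CPM. Across members the mean ran from 16.6 CPM for RPL36A to 2723 CPM for RPS24, with a median of 388 CPM. After RPS24 came RPL8 (2644 CPM), RPLP0 (2168 CPM), RPS3 (1069 CPM), RPL10 (994 CPM), RPL32 (983 CPM), RPL15 (962 CPM) and RPSA (913 CPM). RPL10L, a testis copy of RPL10, was listed at 0 in 5 libraries and reached 0.10 CPM in the untreated library of day 0. RPL3L, the striated muscle copy of RPL3, was at most 0.399 CPM, and neither passed the filter. RPL39L, another copy gene, averaged 27.4 CPM beside 85.9 CPM for RPL39, which has a coding sequence of the same length.

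Per kilobase of coding sequence the highest mean levels belonged to RPS24 (6929 CPM per kb), RPL41 (4727 CPM per kb) and RPL8 (3416 CPM per kb). RPL41 has a coding sequence of 78 bases, the shortest of the members, and reads of its untranslated ends count in its level. The lowest were RPL36A (51.7 CPM per kb), RPL9 (82.9 CPM per kb) and RPS28 (169 CPM per kb). Reads of these genes can be shared with processed pseudogenes, and 26 such rows were listed with a sum of 2108 to 3862 CPM. RPL13AP5 alone held 2.75 to 3.24 times the CPM of RPL13A, whose encoded protein is also known for silencing inflammatory messages. RPSAP58 held 0.583 to 0.684 times the CPM of RPSA in the libraries of untreated and day 3 spheroids and 0.901 and 0.920 times on day 7 of treatment, so the level of RPSA is uncertain. RPL21 is listed at chr10:120354661-120355224, whereas GENCODE places the gene at chr13:27251362-27256691, so its row may not hold the gene named.

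The epithelial keratin KRT18 was at 474 to 864 CPM and vimentin at 731 to 1074 CPM in all 7 libraries. Of 6 markers of immune, fibroblast and endothelial cells, PTPRC, COL1A2 and DCN stayed at or under 0.601 CPM, and CD68, COL1A1 and PECAM1 were at 16.8 to 128 CPM. The sum of the 6 was 147 to 203 CPM in untreated and 168 to 216 CPM in treated libraries. On day 7 of topotecan the macrophage marker CD68 rose with the members, by 0.89 ± 0.15 on the log2 scale (adjusted p = 0.00123, limma), from 65.7 to 96.3 CPM untreated to 120 and 128 CPM, while PTPRC stayed at or under 0.489 CPM. COL1A1 and PECAM1 had -0.36 ± 0.18 and -0.19 ± 0.23. Of the 7 markers of the line, KRT8, KRT18, KRT19 and VIM also rose, by 0.61 to 0.92, and EPCAM, CD44 and HAS3 had -0.05, -0.24 and -0.32. The part of these changes in the results on day 7 was not tested. TMPRSS2, set as low in PC-3 among the markers, was at 71.4 to 149 CPM.

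Ribosomal protein mRNA took up the smallest share of the library on day 3 of topotecan and the largest on day 7 of CONV-TOPO. The members summed to 4.82% of the untreated library of day 0 (exact 95% interval 4.81 to 4.83%), 4.04% of day 3 and 3.82% of day 7. The share was 3.52% in CONV-TOPO and 2.98% in EE-TOPO on day 3, and 5.05% and 4.73% on day 7. Intervals of all 7 libraries were within 0.0107 percentage points of the value and cover counting error alone. From day 3 to day 7 the share was thus lower without drug and higher in either regimen. With 1 library per group, these differences have no replicate check, and a lower share cannot be told apart from more RNA of other genes.

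**Figure D1:**
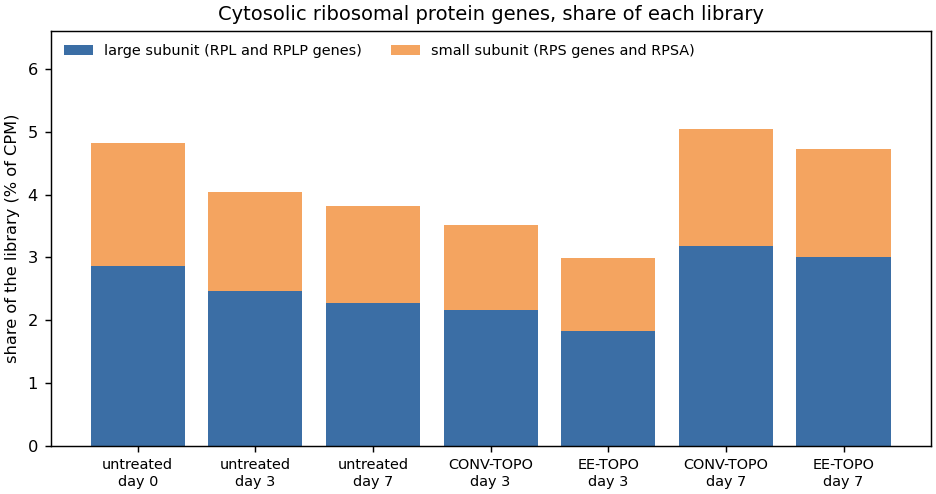
Share of each of the 7 libraries (percent of CPM, y axis) held by the 80 cytosolic ribosomal protein genes, with bars split into the large and the small subunit and 1 library per bar. The share is lowest in EE-TOPO on day 3 (2.98%) and highest in CONV-TOPO on day 7 (5.05%), and both subunits follow the same order of days under topotecan.

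Both subunits held less on day 3 of topotecan than in any untreated library. On day 7 of topotecan only the large subunit exceeded all untreated libraries. The small subunit lay within the untreated range there and was largest in untreated day 0. The large subunit held 2.27 to 2.86% of the untreated libraries, 1.83 and 2.17% on day 3 and 3.00 and 3.18% on day 7 of EE-TOPO and CONV-TOPO, and the small subunit held 1.55 to 1.95%, 1.15 and 1.35%, and 1.73 and 1.87%. Of the 78 members, 70 had their lowest scaled value in EE-TOPO on day 3, 5 in untreated day 7 and 3 in CONV-TOPO on day 3. The highest scaled value lay in CONV-TOPO on day 7 for 45 members and in untreated day 0 for 27. In unscaled CPM these became 28 and 39 members, so which library ranks highest depends on the scaling, and 65 members were lowest in EE-TOPO on day 3.

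**Figure D2:**
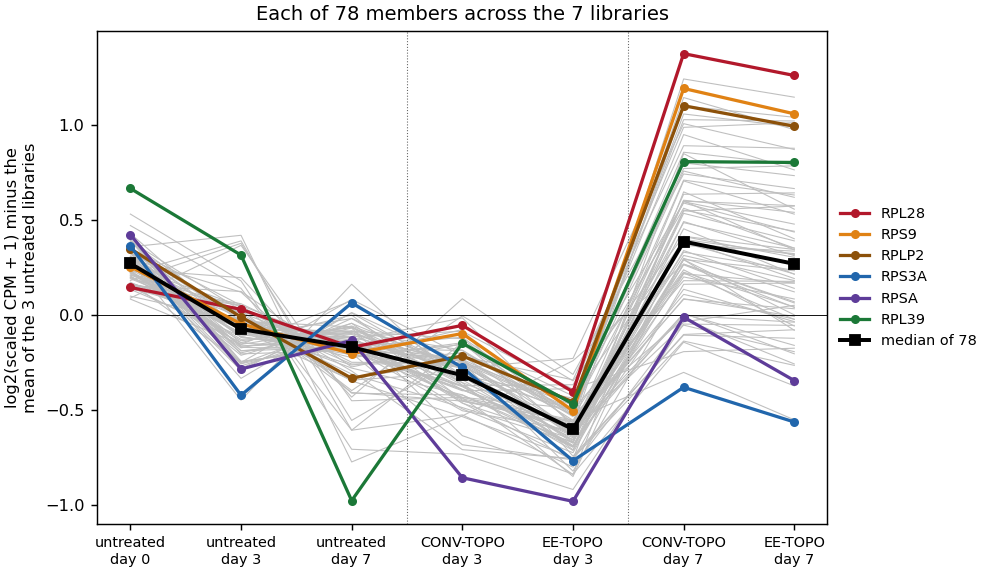
Scaled level of each of 78 members (grey lines) as the difference in log2(scaled CPM + 1) from the mean of the 3 untreated libraries (y axis) across the 7 libraries (x axis), with 6 members in colour and the median in black. Members lie close together on day 3 of topotecan and spread apart on day 7, from RPS3A to RPL28, and RPL39 is lowest in untreated day 7.

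In untreated spheroids the members were lower on the later days. On day 3 against day 0 the median log2 ratio of scaled values was -0.34 (all genes with at least 10 CPM, -0.03), 74 of 78 members were lower, and 9 were at least 1.5-fold lower, against 2.55% of all genes. On day 7 against day 0 the median was -0.43 (all genes, -0.05), all 78 members were lower, and 18 were at least 1.5-fold lower, against 1.86% of all genes. The largest difference was that of RPL39, a small protein of the exit tunnel, whose scaled values in CPM were 116, 90.6 and 36.4 for days 0, 3 and 7. RPS21 followed with 191, 150 and 80.5 CPM, RPL36A with 21.8, 22.8 and 9.39 CPM and RPS29 with 345, 274 and 163 CPM. RPL23 differed least, at 287, 243 and 286 CPM. The members with the shortest coding sequences were the lowest, with a median log2 ratio of -0.64 for 26 members of 78 to 399 bases. The median was -0.33 for 26 members of 408 to 567 bases and -0.37 for 26 members of 579 to 1284 bases. Across the 78 members the day 7 ratio and coding length had a Spearman correlation of 0.56, and across 9652 genes, which share the same libraries, it was 0.50. These are ratios of single libraries, with no test, and after removal of the trend of all genes with GC content and transcript length the day 7 median was -0.15.

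Whether topotecan changed the members by day 3 was asked with a fit that set both regimens of day 3 (2 libraries) and of day 7 (2 libraries) against the 3 untreated libraries, so that its error is the spread between regimens and between untreated days, not between replicates. All 78 members had a negative log2 fold change on day 3, with a median of -0.46 (range -0.92 to -0.12) beside -0.01 over all 14857 genes tested. No member passed an adjusted p of 0.05 in limma, nor did any gene (0.0% of genes in either direction), while at an unadjusted p under 0.05 there were 56 members and 1252 of all genes on the lower side. Both topotecan libraries of day 3 lay below all 3 untreated libraries for 51 members, a pattern shown by 22.2% of the 9985 genes with at least 10 CPM, and above them for 0 members, against 14.2% of genes. Without the untreated library of day 3 the fit called 3 members lower, among them RPSA (-1.06) and RPS7 (-0.84), with 0.331% of all genes lower and 1.1% higher.

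The lowest members on day 3 were RPSA, RPS21, RPS7 and RPS26, all of the small subunit. RPSA, which also serves as a laminin receptor, had scaled values of 1463, 896 and 995 CPM without drug (days 0, 3 and 7 in this order, here and in the values that follow) and of 602 CPM in CONV-TOPO and 553 CPM in EE-TOPO on day 3. The groups did not overlap, and the log2 fold change was -0.92 ± 0.21 (standard error, adjusted p = 0.15, limma). RPS7 had 129 to 180 CPM untreated against 95.4 and 82.8 CPM, with a log2 fold change of -0.74 ± 0.15 (adjusted p = 0.14, limma). RPS26 had 150 to 219 CPM untreated against 112 and 109 CPM, and RPS21 had 80.5 to 191 CPM against 79.0 and 69.4 CPM. Their values do not overlap either, although untreated day 7 lay close to the treated libraries for RPS21. At the other end were RPL36 (-0.12 ± 0.21), RPL37 (-0.18 ± 0.19), RPL28 (-0.23 ± 0.16) and RPL29 (-0.24 ± 0.15), all of the large subunit. For RPL36 the untreated values were 751, 728 and 471 CPM and the treated values 674 and 512 CPM, so that the groups overlapped.

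Set against untreated spheroids of equal age, CONV-TOPO on day 3 had a median member log2 ratio of -0.25 (all genes, -0.03) with 7 members at least 1.5-fold lower, against 2.02% of all genes. EE-TOPO on day 3 had a median of -0.51 (all genes, -0.06) with all 78 members lower and 22 at least 1.5-fold lower, against 4.25% of all genes. In the fit without the untreated library of day 0 the median was -0.32 and 3 members were above 0. Removal of the trend with GC content and transcript length over all genes left a median of -0.25, with 73 members below 0.

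On day 7 the changes of the members lay further apart than on day 3, as did those of all genes. In topotecan day 7 against untreated, 29 of 78 members rose and 1 fell at an adjusted p under 0.05 (limma), against 20.1% of all genes that rose and 23.3% that fell. The median log2 fold change was 0.34 (all genes, -0.05), the range was -0.47 to 1.32, and 64 members lay above 0. The standard deviation of the members' changes was 0.41 on day 7 and 0.14 on day 3. For log2 ratios of single libraries to untreated of the same day, it was 0.23 in CONV-TOPO and 0.16 in EE-TOPO on day 3. On day 7 it was 0.46 and 0.49. Over all genes with at least 10 CPM it was 0.29 and 0.37 on day 3 and 0.73 and 0.78 on day 7, wider than that of the members. Both libraries of day 7 lay above all untreated libraries for 38 members, against 32.6% of genes, and below them for 1, against 37.1% of genes. CPM without scaling gave 19 members higher and 4 lower with a median of 0.14, where the median of all genes was -0.22 and 13.4% of genes rose and 32.2% fell. The count of members that rose was 13 without CONV-TOPO day 7 (14.1% of all genes in that fit), 18 without EE-TOPO day 7 (12.7%) and 45 without untreated day 0 (20.3%). The first of these is a share of members near that of all genes.

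**Figure D3:**
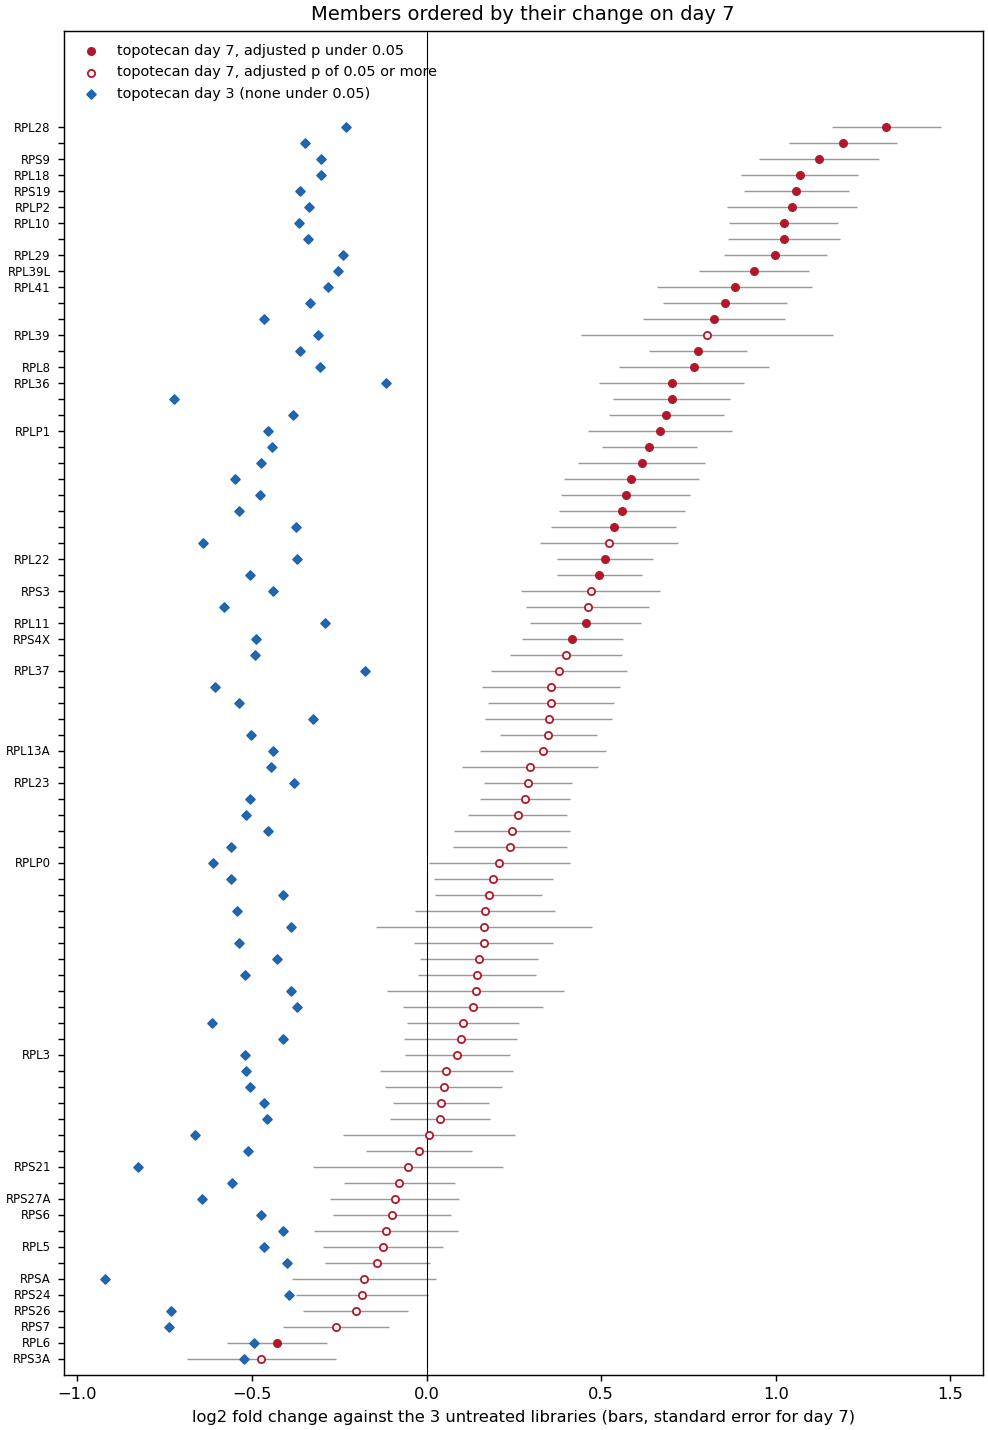
Log2 fold change against the 3 untreated libraries (x axis) of each of 78 members (y axis, some of them named), with circles for topotecan day 7 (filled, adjusted p under 0.05, bars for the standard error) and diamonds for topotecan day 3. All diamonds lie below 0, and the circles run from -0.47 (RPS3A) to 1.32 (RPL28).

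RPL28, a protein of the large subunit, had scaled values of 670, 619 and 539 CPM untreated, 584 and 458 CPM in CONV-TOPO and EE-TOPO on day 3, and 1574 and 1454 CPM on day 7. Both day 7 libraries stood apart from the other 5, and the log2 fold change was 1.32 ± 0.16 (adjusted p = 0.000175, limma). RPS9 had 483 to 664 CPM untreated and 1273 and 1161 CPM on day 7 of topotecan, and RPL18 had 273 to 338 CPM and 644 and 618 CPM. RPS19, the gene most often mutated in Diamond-Blackfan anaemia, had 494 to 588 CPM untreated and 1162 and 1034 CPM on day 7. For these the treated libraries were above every untreated library, with log2 fold changes of 1.06 to 1.12.

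The stalk of the large subunit, which recruits the elongation factors, is made of RPLP0, RPLP1 and RPLP2. RPLP2 had scaled values of 684, 533 and 426 CPM untreated, 463 and 391 CPM on day 3 and 1153 and 1070 CPM on day 7 of CONV-TOPO and EE-TOPO. It rose by 1.05 ± 0.19 on day 7 (adjusted p = 0.00141, limma), and RPLP1 rose by 0.67 ± 0.21 (adjusted p = 0.0228). The call of RPLP1 was lost on unscaled CPM (0.47) and without untreated day 7 (0.50), CONV-TOPO day 7 (0.63) or EE-TOPO day 7 (0.71). RPLP0, the base of the stalk, was at 2854, 2057 and 2090 CPM untreated and at 2834 and 2507 CPM on day 7, within the untreated range, with a log2 fold change of 0.21 ± 0.20 (adjusted p = 0.43).

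At the low end, both day 7 libraries lay below all untreated libraries for RPL6, and the values of RPS3A, RPS7, RPS24, RPS26 and RPSA overlapped with the untreated ones. RPS3A had scaled values of 429, 248 and 348 CPM untreated, 275 and 195 CPM on day 3 and 256 and 225 CPM on day 7 of CONV-TOPO and EE-TOPO, with a log2 fold change of -0.47 ± 0.21 on day 7 (adjusted p = 0.096, limma). RPL6, of the large subunit, was the single member that fell, from 698 to 844 CPM untreated to 615 and 517 CPM, by 0.43 ± 0.14 (adjusted p = 0.0311). It did so also on unscaled CPM but not without untreated day 0 or without EE-TOPO day 7. RPS24, the most abundant member, was at 2666 to 3323 CPM untreated and 2646 and 2680 CPM on day 7. RPS7, RPS26 and RPSA had log2 fold changes of -0.26 ± 0.15, -0.20 ± 0.15 and -0.18 ± 0.21. The copy RPSAP58 had 0.34 ± 0.20 (adjusted p = 0.20, limma). Scaled values of RPSA and RPSAP58 together were 1509 to 2410 CPM untreated and 2059 and 1649 CPM on day 7. The place of RPSA among the lowest members is therefore uncertain. On unscaled CPM, RPS3A (-0.67), RPS7 (-0.46) and RPS26 (-0.40) passed the threshold beside RPL6 (-0.63).

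Of the members with roles outside the ribosome, RPL11 rose by 0.46 ± 0.16 (adjusted p = 0.0387, limma) on day 7, from 310 to 418 CPM untreated to 555 and 479 CPM. That call was lost on unscaled CPM (0.26) and without untreated day 7 (0.32), CONV-TOPO day 7 (0.35) or EE-TOPO day 7 (0.56). Its partner in the 5S particle, RPL5, was at 454 to 678 CPM untreated and 536 and 486 CPM (-0.12 ± 0.17, adjusted p = 0.59). RPL23 was at 243 to 287 CPM untreated and 356 and 310 CPM (0.29 ± 0.13, adjusted p = 0.083). RPS3, also a DNA repair enzyme, was at 918 to 1310 CPM and 1578 and 1319 CPM (0.47 ± 0.20, adjusted p = 0.078), and RPS6, the substrate of the S6 kinases, at 465 to 645 CPM and 542 and 467 CPM (-0.10 ± 0.17). MDM2 itself had a log2 fold change of -0.18 ± 0.11 (adjusted p = 0.23). RPL13A had 0.33 ± 0.18 (adjusted p = 0.16), and the reads listed under RPL13AP5 are not in it. Of the other abundant members, RPL8 rose (0.77 ± 0.21, adjusted p = 0.0149), and RPL32 and RPL15 had 0.25 ± 0.17 and 0.18 ± 0.15. RPL22 rose by 0.51 ± 0.14 (adjusted p = 0.0119), while its paralog RPL22L1 had -0.43 ± 0.21 (adjusted p = 0.12). The call of RPL22 was lost on unscaled CPM (0.31) and without CONV-TOPO day 7 (0.44).

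RPL10, which completes the large subunit, rose by 1.02 ± 0.16 (adjusted p = 0.000606, limma), from 730 to 929 CPM to 1690 and 1682 CPM, while RPL3, at the peptidyl transferase centre, was at 749 to 919 CPM and 977 and 795 CPM (0.09 ± 0.15). RPL41 rose by 0.88 ± 0.22 (adjusted p = 0.00885), from 212 to 406 CPM to 580 and 575 CPM, a call lost without CONV-TOPO day 7 (0.88) or EE-TOPO day 7 (0.89). With the trend of all genes with GC content and transcript length removed, the value of RPL41 was -0.018. RPL39 had the largest ratios to untreated day 7 in both regimens (1.78 in each on the log2 scale), but that library was its lowest, at 36.4 CPM, and in the fit its change was 0.80 ± 0.36 (adjusted p = 0.094). RPS4X rose by 0.42 ± 0.14 (adjusted p = 0.0361), but did not pass on unscaled CPM (0.22) or when any library other than untreated day 0 was left out (0.35 to 0.48). RPS27A, made as a fusion with ubiquitin, had -0.09 ± 0.18. Of the paralogs that the symbol rule leaves out, RPL36AL rose (0.54 ± 0.16, adjusted p = 0.0215), RPL7L1 fell (-0.50 ± 0.13, adjusted p = 0.00927), and RPS27L and RPL26L1 had -0.01 ± 0.15 and 0.09 ± 0.19.

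In the fit that pooled regimens, the change from day 3 to day 7 of topotecan was above 0 in all 78 members on scaled values. It was above 0 in 74 on unscaled CPM and in 41 with the trend with GC content and transcript length removed. Between single libraries of the 2 days, 76 members were higher and 2 lower on day 7 in CONV-TOPO, and 78 were higher in EE-TOPO. In the contrast of both topotecan days, 65 of 78 members were higher on day 7 and 0 lower (limma), against 21.7% and 23.5% of all genes, with a median of 0.78 (all genes, -0.05). At an unadjusted p under 0.05 the numbers were 69 and 0. Both day 7 libraries exceeded both day 3 libraries for 75 members, against 41.2% of genes, and were below them for 0, against 41.0%. The count of members called higher was 34 without EE-TOPO day 3 (13.2% of all genes in that fit) and 38 without CONV-TOPO day 7 (15.6%). RPL28 had the largest change (1.55 ± 0.17, adjusted p = 0.000144) and RPS3A the smallest (0.05 ± 0.23, adjusted p = 0.88).

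The change of the members on day 7 went with the base composition of their coding sequences, as did that of all genes. The share of codons with G or C at the third position ran from 38.9% in RPS23 to 93.2% in RPS15. For the 26 members with the highest values (65.1 to 93.2%) the median log2 fold change on day 7 was 0.73 and 17 rose, for the middle 26 it was 0.22 and 8 rose, and for the lowest 26 (38.9 to 51.9%) it was 0.17, with 4 that rose and 1 that fell. The Spearman correlation across the 78 members was 0.50 on day 7 and 0.24 on day 3, and across 9652 genes of the same libraries it was 0.56 and -0.05. Transcript length was the stronger correlate of the day 7 change among all genes (-0.63) but had a correlation of 0.01 across the members. Of the 12 members on chromosome 19, where the median was 78.3%, 9 rose, with a median change of 0.80 against 0.24 for the other 66.

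The first 300 bases of the coding sequences (GENCODE, hg38) of RPL28 and RPS24 are shown with G or C at the third codon position in capitals. RPL28 was the highest member on day 7, and RPS24 is of the 6 lowest the nearest to it in length. Both were thus chosen by their change. In the fit with the trend of all genes with GC content and transcript length removed, RPL28 still rose and RPS24 fell. The gene of RPL28 lies at chr19:55385932-55403250 and that of RPS24 at chr10:78033760-78056813, both on the plus strand. In these stretches 79 of 100 codons are marked in RPL28 and 46 of 100 in RPS24, and over the whole sequences 114 of 138 and 62 of 131.
RPL28: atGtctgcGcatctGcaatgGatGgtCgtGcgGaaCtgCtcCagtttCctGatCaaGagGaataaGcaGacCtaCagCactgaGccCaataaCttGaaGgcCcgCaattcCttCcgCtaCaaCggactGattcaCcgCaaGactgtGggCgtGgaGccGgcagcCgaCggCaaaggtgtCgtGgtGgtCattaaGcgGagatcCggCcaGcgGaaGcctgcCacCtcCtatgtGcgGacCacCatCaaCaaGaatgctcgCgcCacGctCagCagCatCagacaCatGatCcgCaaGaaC
RPS24: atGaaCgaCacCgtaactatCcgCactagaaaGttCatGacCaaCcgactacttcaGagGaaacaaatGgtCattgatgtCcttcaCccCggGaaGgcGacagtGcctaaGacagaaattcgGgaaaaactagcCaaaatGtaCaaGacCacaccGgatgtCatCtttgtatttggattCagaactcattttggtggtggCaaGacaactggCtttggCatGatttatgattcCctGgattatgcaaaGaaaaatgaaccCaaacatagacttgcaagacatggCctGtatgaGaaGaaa

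**Figure D4:**
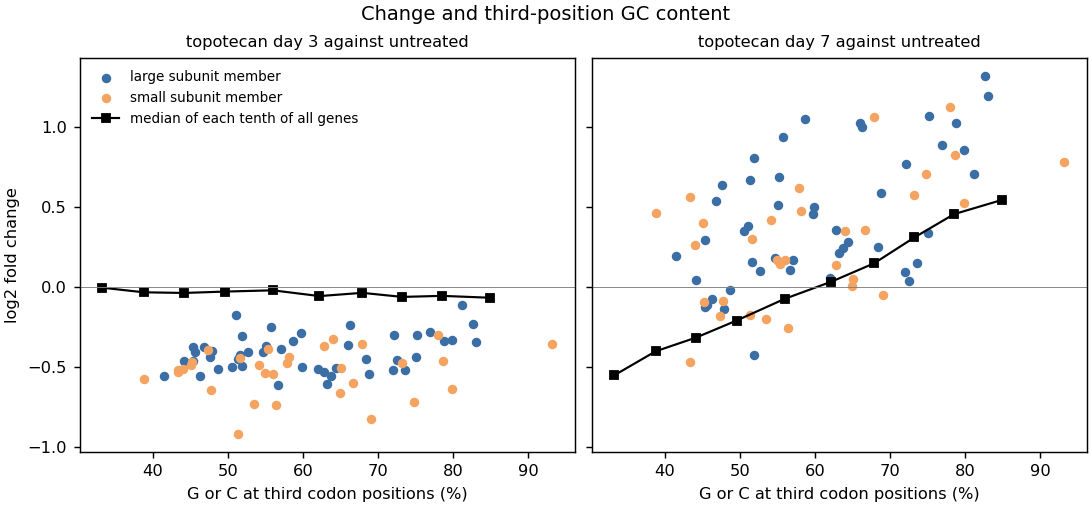
Log2 fold change of 78 members (dots, large and small subunit in colour) against the percentage of codons that end in G or C (x axis), with squares for the median of all genes in 10 equal bins of that percentage. The medians of all genes are flat on day 3 (-0.07 to -0.01) and climb from -0.55 to 0.54 on day 7, and the members lie below them on day 3 and mostly above them on day 7.

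When the trend of all genes with GC content and transcript length was removed from each library, the day 7 median of the members became -0.15, with 10 higher and 20 lower, against 10.6% and 11.2% of the 13207 genes in that fit. In that fit RPL28 (1.14) and RPS19 (0.71) still passed the threshold, whereas RPS9 (0.10), RPL18 (0.05) and RPLP2 (0.14) did not, and RPS3A, RPL6, RPS7, RPS26 and RPS24 fell. The annotated transcript of RPL28 is far longer than its coding sequence, which enters its corrected value. For topotecan day 7 against day 3 the same removal left 17 members higher and 9 lower, against 8.6% and 8.72% of genes, with a median of 0.09. The day 7 rise of the members therefore cannot be told apart from a change shared by genes of like composition and length, and the part of library preparation in it was not tested.

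Other features split the members less, and 20.1% of all genes rose. By coding length, the shortest 26 members had a median of 0.46 on day 7 (12 rose) and the middle 26 had 0.36 (10 rose). The longest 26 had 0.16 (7 rose and 1 fell). The large subunit had a median of 0.35 on day 7 (20 of 47 rose) and the small subunit 0.30 (9 of 31 rose). The 42 members with a TOP start had 0.29 (14 rose) and the 20 with another RefSeq start 0.16 (7 rose). Members whose introns hold small nucleolar or other small RNAs (33) had a median of 0.38 and the other 45 of 0.30. On day 3 all these groups had medians between -0.51 and -0.41.

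Gene groups around the ribosome were set beside the members. Among all genes tested, 20.1% rose and 23.3% fell on day 7. Of 20 other TOP messages, 6 rose and 3 fell on day 7, with a median of 0.09. Those that rose included RACK1 (0.58 ± 0.15) and FAU (0.81 ± 0.16), which encode ribosomal proteins under other symbols, and those that fell were EEF1B2, PABPC1 and NAP1L1. Of 39 genes for ribosome assembly and rRNA synthesis, 8 rose and 12 fell, with a median of -0.23. The share of these that rose is near that of all genes. The methyltransferase FBL (0.78 ± 0.13), BOP1 (0.69 ± 0.13) and EIF6 (1.12 ± 0.19) rose, and the processome proteins UTP20 (-0.96 ± 0.14), WDR43 (-0.95 ± 0.15) and HEATR1 (-0.90 ± 0.17) fell. Of 14 regulators, 3 rose and 4 fell, shares near those of all genes. Those that fell were MTOR (-0.83 ± 0.13), LARP1 (-0.37 ± 0.11), RPS6KB1 (-0.57 ± 0.12) and TOP1 (-0.75 ± 0.13), the target of topotecan. Those that rose were EIF4EBP1 (1.26 ± 0.13), RPS6KB2 (0.67 ± 0.11) and RHEB (0.81 ± 0.14), and MYC had -0.06 ± 0.17.

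Genes for other complexes moved alongside. Of 78 mitochondrial ribosomal protein genes, 35 rose and 1 fell on day 7 with a median of 0.34, and on day 3 the median was -0.34. Nuclear genes of oxidative phosphorylation had 35 of 74 that rose, 2 that fell and medians of 0.45 and -0.50. Proteasome genes had 9 of 34 that rose, 0 that fell and medians of 0.24 and -0.24. Among all genes 20.1% rose and 23.3% fell, and the share of proteasome genes that rose is near the first of these. A median below 0 on day 3 and above 0 on day 7 was thus also found in these groups, and no difference between groups was tested. All these comparisons share the 3 untreated libraries.

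**Figure D5:**
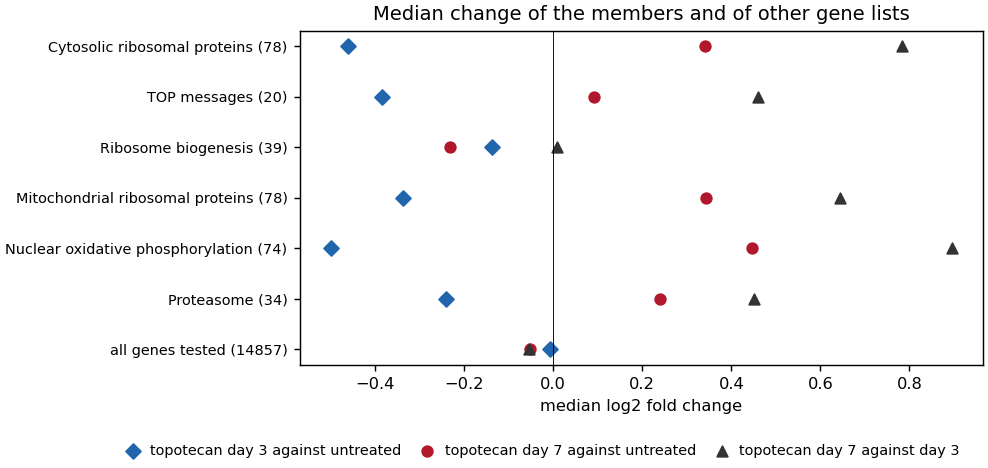
Median log2 fold change (x axis) of the 78 tested members, of 5 other gene lists and of all 14857 genes tested (number of genes in brackets), for topotecan day 3 and day 7 against untreated and for day 7 against day 3. Cytosolic and mitochondrial ribosomal, oxidative phosphorylation and proteasome genes lie below 0 on day 3 and above 0 on day 7, and ribosome biogenesis genes lie below 0 on both.

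The members were lower in EE-TOPO than in CONV-TOPO on each day, by less than the differences between the days of either regimen. On day 3 the median log2 ratio of EE-TOPO to CONV-TOPO was -0.28 (all genes, -0.01), with 74 of 78 members lower and 1, RPL9, at least 1.5-fold lower, against 1.31% of all genes. On day 7 it was -0.12 (all genes, -0.02), with 70 members lower and 0 at least 1.5-fold lower, against 1.58% of all genes. The members with the lowest ratios on day 3 were RPL9 (49.7 CPM in CONV-TOPO and 30.9 CPM in EE-TOPO), RPS15A (131 and 87.8 CPM) and RPL18 (297 and 200 CPM), and those on day 7 were RPL12 (345 and 267 CPM), RPSA (1083 and 859 CPM) and RPL3 (977 and 795 CPM). The highest ratios were 0.29 for RPL36A, 0.05 for RPL39L and 0.01 for RPS24 on day 3 and 0.09 for RPS29, 0.03 for RPS20 and 0.02 for RPS27A on day 7.

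A fit of treatment and day over the 6 libraries of days 3 and 7, whose error is how a treatment's effect varies between days, called 0 members and 0 genes (0.0% in each direction) in EE-TOPO against CONV-TOPO, EE-TOPO against untreated and CONV-TOPO against untreated (limma). The counts of members at an unadjusted p under 0.05 were also 0, and of all genes 134, 527 and 257. For EE-TOPO against CONV-TOPO the median member change was -0.20 (range -0.34 to 0.04) and 76 of 78 members were below 0. Medians were -0.05 for EE-TOPO and 0.17 for CONV-TOPO against untreated. The members lay below untreated on day 3 and mostly above it on day 7, and this fit averages over both. Against untreated day 7, the CONV-TOPO library had a median log2 ratio of 0.56 with 36 members at least 1.5-fold higher, against 21.3% of genes, and 0 lower, against 20.2%. The EE-TOPO library had a median of 0.49 with 33 higher, against 21.8%, and 1 lower, RPS3A, against 22.0%.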

How the data were processed

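Per the labels and the methods, RNA was prepared with a TruSeq RNA kit and sequenced as read pairs, reads were aligned with STAR to hg38, and the authors deposited CPM per gene (10 samples, 7 with a column here). Each value carried an added 0.0001, which was subtracted, and columns summed to 1000000 over 18144 genes. Raw counts were not used, since 83.8 to 87.7% of values under 1000 CPM came out as whole reads (within 0.05 reads). Among member values under 1000 CPM fewer did, from 35 of 75 in untreated day 7 to 51 of 75 in untreated day 3. Depth (15028215 to 22478190 reads) is therefore an estimate, and 3 reads equal 0.134 to 0.200 CPM. Intervals (exact Clopper-Pearson, 95%) rest on that estimate and cover counting error only. Genes with at least 0.528 CPM (10 reads at the median depth) in 2 libraries were kept. TMM-scaled CPM were tested as log2(value + 1), on which scale fold changes are given, with limma 3.58.1 (R 4.3.3, trend and empirical Bayes) and Benjamini-Hochberg adjustment over all genes, called at 0.05. One fit pooled regimens by day over 7 libraries, and another fitted treatment and day over 6. Groups held 1 library, and p-values rest on the spread between regimens and days. Ratios of single libraries used genes with at least 10 CPM and a 1.5-fold limit.

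Named members were the 6 highest and 6 lowest on day 7, the 4 at each end on day 3, the 3 at each end between regimens, the 10 most abundant, those under the filter and members with known roles. Members named as extremes of untreated days, level per kb or base composition were chosen after their values were seen. Members, gene lists and naming rules were chosen with earlier results of these data known. RPL21's position and reads shared with pseudogenes remain uncertain. Third-position GC and lengths came from GENCODE 44 and start windows from RefSeq. Some genes that these rules select are not reported here. Scripts were tested on simulated data, and alternatives are given in the closing section. Python 3.11.15, pandas 2.3.3, numpy 2.4.6, scipy 1.17.1 and matplotlib 3.10.9 were used.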

Additional observations from a re-analysis of the deposited data

Results flagged for a closer look

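The level of the members under topotecan differed between its days. Topotecan day 7 was tested against topotecan day 3 (limma, Benjamini-Hochberg adjusted p under 0.05). On day 7, 65 of 78 members were higher and 0 lower, against 21.7% and 23.5% of all genes. The pooled untreated libraries cancel out of this difference but still enter its error. The median change was 0.78 on the log2 scale, and 75 members were higher in both libraries of day 7 than in both of day 3, as were 41.2% of 9985 genes. Whether the effect against untreated spheroids of the same age differed was not tested. There were 34 members higher without EE-TOPO day 3 (13.2% of all genes in that fit), 38 without CONV-TOPO day 7 (15.6%) and 17 (8.6%) after the trend with GC content and transcript length was removed, where 9 were lower. No group held enough libraries to look for a single library far from the rest.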

How the results depend on the processing

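Leaving out each library in turn gave 0 to 3 members lower on day 3, 13 to 45 higher and 0 to 2 lower on day 7, and 34 to 70 higher on day 7 against day 3, where 0.0 to 0.331%, 12.7 to 20.3%, 14.6 to 22.4% and 13.2 to 22.4% of all genes were called. With unscaled CPM 19 members rose and 4 fell on day 7, with scaling to reads outside the members 4 fell, and at an adjusted p of 0.01 18 rose, 0 fell and 43 were higher on day 7 than day 3. Removal of the trend with GC content and length, chosen after seeing the data, gave 10 higher and 20 lower on day 7 and 17 and 9 for day 7 against day 3. It moved the median ratios of single libraries to -0.23, -0.15 and 0.081 for untreated day 3 over day 0, day 7 over day 0 and day 7 over day 3, to -0.068 and -0.21 for CONV-TOPO and EE-TOPO over untreated on day 3 and -0.066 and -0.10 on day 7, to -0.15 and -0.071 for EE-TOPO over CONV-TOPO on days 3 and 7, and to 0.032 and 0.093 for day 7 over day 3 of CONV-TOPO and EE-TOPO. Unscaled CPM and reads outside the members gave -0.26 and -0.27 for untreated day 3 over day 0, -0.20 for CONV-TOPO day 3, -0.44 and -0.46 for EE-TOPO day 3, 0.31 and 0.33 for CONV-TOPO day 7, 0.27 and 0.28 for EE-TOPO day 7, and 0.49, 0.51, 0.59 and 0.62 for day 7 over day 3 of CONV-TOPO and EE-TOPO. Against the mean of the 3 untreated libraries the medians were -0.33, -0.62, 0.37 and 0.25 for CONV-TOPO and EE-TOPO on days 3 and 7. With ribosomal proteins of other symbols (FAU and RACK1 among them) the shares were 4.95, 4.16, 3.93, 3.62, 3.07, 5.22 and 4.89%. On day 3 the sign turned for RPL36 (0.02 without untreated day 0, 0.084 without EE-TOPO day 3, 0.11 with the trend removed) and RPL37 (0.0095 without untreated day 0). On day 7 it turned without untreated day 0 for RPSA (0.050, range over left-out libraries -0.35 to 0.050), RPL5 (0.036), RPS6 (0.049) and RPS27A (0.12), without EE-TOPO day 7 for RPS6 (0.0076), with the trend removed for RPLP0 (-0.30), RPL3 (-0.48), RPL13A (-0.38) and RPL41 (-0.018), and for RPL3 with unscaled CPM (-0.11), reads outside the members (-0.10) and without CONV-TOPO day 7 (-0.060, range over left-out libraries -0.060 to 0.24). The cause of these changes was not tested. Of 525 values of named members under an alternative, 456 kept their direction and side of the threshold, 35 were no longer called and 18 became called. No value in the fit of treatment and day changed its call in 36 alternatives. No mitochondrially encoded gene was listed, so shares without them were not run. No paired analysis was possible by replicate number because each group held a single library and all carried the same replicate number, and the fit of treatment and day matched libraries by day instead.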
